A study of Homo sapiens with 6 samples.

Results

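The genes described here are the 71 protein-coding genes of the human histone clusters, of 58735 genes in the deposited count table. They were chosen by name alone, as the protein-coding genes of GENCODE release 29 whose name in that release starts with HIST1H, HIST2H, HIST3H or HIST4H. They comprise 6 genes for the linker histone H1 and, for the core histones, 17 for H2A, 18 for H2B, 15 for H3 and 15 for H4. Of these genes, 55 carry HIST1 names and 12 carry HIST2 names, 3 belong to HIST3, and 1 belongs to HIST4. Genes are called by their current symbols, except HIST1H3B, HIST1H3C, HIST2H2AA3 and HIST2H2AA4, which keep the release 29 name.

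RNA sequencing compared 2 populations of HCT116, an established human colorectal carcinoma line. The vector group (3 libraries, genotype given as WT) carried an empty vector, and the SETD8 group (3 libraries) overexpressed SETD8, the histone H4 lysine methyltransferase encoded by KMT5A. Per the labels, both groups were made by lentiviral transduction and puromycin selection of stable clones, whereas the design text speaks of transfection. How many clones each group holds is not given, and the labels do not tell whether replicates were grown apart. The p-values therefore speak of the spread among these libraries alone, and that spread may be technical. RNA was poly(A)-selected before library preparation.

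Replication-dependent histone genes are transcribed mainly in S phase, when new DNA has to be packaged. Their messengers are unusual in that most end in a conserved stem-loop instead of a poly(A) tail. The stem-loop binding protein SLBP holds this structure through processing, export, translation and decay. Many of these genes can also give longer, polyadenylated transcripts when a poly(A) signal downstream of the stem-loop is used. Poly(A) selection therefore samples the tailed transcripts and not the bulk of histone messenger, and every level below is a level of what that selection retained.

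A complete stem-loop was found in the annotated transcripts of 32 of the 71 genes. The motif searched is 16 bases long and reads GGNNCTT, then N, T and N, then AGNNCC (N is any base), on the transcript strand after the stop codon. It lay 22 to 67 bases past that codon. It stood in 3 of 18941 other protein-coding genes searched over the first 150 bases after the stop (0.0158%). The motif took 6 forms among the 32 genes. The examples below are genes the results turn on, and are written 5′ to 3′ on the gene's strand, with the 16 bases of the motif in capitals and 4 bases before and 5 after it in lower case. Coordinates are those of the capitals on GRCh38.
H2AC25, chr1:228457369-228457384, minus strand: taaaGGCTCTTTTCAGAGCCaccta
H2AC6, chr6:26124669-26124684, plus strand: caaaGGCTCTTTTCAGAGCCcccct
H2BC5, chr6:26158587-26158602, plus strand: caaaGGCTCTTTTAAGAGCCacgca
H2BC18, chr1:149811885-149811900, minus strand: caaaGGCTCTTTTCAGAGCCacttc
H4C9, chr6:27139654-27139669, plus strand: aaaaGGCCCTTTTTAGGGCCcctaa
H4C2, chr6:26026901-26026916, minus strand: caatGGCCCTTTTCAGGGCCgccca
The first 4 of these genes, an H2A or H2B each, share the outer stem GGCTCT, and both H4 genes have GGCCCT in its place. H2AC25, H2AC6 and H2BC18 hold the identical motif, though H2AC25 rose, H2BC18 fell and H2AC6 did not pass the test, as given below. The annotation runs past the stem-loop in all 6, by 390 bases in H2AC25, 1114 in H2AC6, 39 in H2BC5, 1479 in H2BC18, 212 in H4C9 and 86 in H4C2.

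The other 39 genes have no complete stem-loop in their annotated transcript, and for 35 of all 71 genes the annotation ends at the stop codon. H1-2, H2BC12, H2BC17 and HIST1H3B are among these 35, so the model of each lacks any sequence past the coding region. The model of H1-4 stops 13 bases into the motif. The annotation the authors counted against is not stated. If it was this one, reads past the end of such a model are not in these counts.

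Libraries held 17056672 to 20471843 counts, so 3 counts correspond to 0.150 to 0.174 CPM (counts scaled to library size, by TMM), a limit for counting error only. KMT5A stood at 46.0, 47.3 and 53.9 CPM in vector replicates 1, 2 and 3 and at 65.4, 66.2 and 75.5 CPM in SETD8 replicates 1, 2 and 3 (log2 fold change 0.49, SE 0.10, edgeR adjusted p = 0.0156). Vector replicate 1 stood nearer to every SETD8 library than to either library of its own group, with a chi-square per degree of freedom of 10.8 to 12.3 against the SETD8 libraries, 12.9 against vector replicate 2 and 30.8 against vector replicate 3. Vector replicates 2 and 3 gave 26.1 to 48.7 against the SETD8 libraries. Over all genes 14370 were tested, of which 443 were higher with SETD8 (3.08%) and 682 lower (4.75%), or 7.83% in either direction. Of 7 colon epithelial markers KRT8, KRT18, KRT19, EPCAM, CDX2 and CDH1 were tested, CDH1 fell by 0.54 on the log2 scale (edgeR adjusted p = 0.0218), and VIL1 had 0 to 4 counts a library. Of 6 fibroblast markers COL1A2 and DCN were at 0 and COL1A1, the only one tested, had 62 to 114 counts. Of 4 endothelial markers KDR was at 0 and VWF, the only one tested, had 10 to 31 counts. Of 4 immune markers PTPRC and CD3E were at 0 and none was tested. COL1A1 and VWF did not pass (edgeR adjusted p = 0.236 and 0.737).

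The histone cluster genes were few and low in these libraries, and they did not move one way. Of the 71, 22 had enough counts to be tested, 27 had counts under the filter and 22 had 0 counts in every library. By edgeR's quasi-likelihood test 3 rose with SETD8 (H1-2, H2AC25 and H2BC5) and 4 fell (H1-4, H2BC18, H2BC17 and HIST1H3B). Over all tested genes 3.08% rose and 4.75% fell. All 4 members that fell passed the low-count filter (0.532 CPM in 3 libraries) only through the vector libraries, as did 4 others of the 22, so nothing is read from the share of members that fell. The median log2 fold change of the tested members was -0.39, beside 0 over all tested genes, and 9 were positive and 13 negative. The 8 members that passed the filter only through the vector libraries were all negative. Nothing is therefore read from this median or from these signs either. Among H1 genes 1 rose and 1 fell of 2 tested, among H2A genes 1 rose and 0 fell of 4, among H2B genes 1 rose and 2 fell of 10, among H3 genes 0 rose and 1 fell of 4, and of 2 H4 genes tested 0 passed. An unadjusted p under 0.05 was reached by 16 of the 22, including 1 H4 gene, and by 26% of all tested genes. DESeq2 gave an adjusted p for 14 of the 22 and called 5 higher and 1 lower, with 0 among H4 genes, beside 5.14% and 6.29% of all its genes. It gave no adjusted p for H2BC18, H2BC17 and HIST1H3B. The tested members do not stand for all 71.

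**Figure D1:**
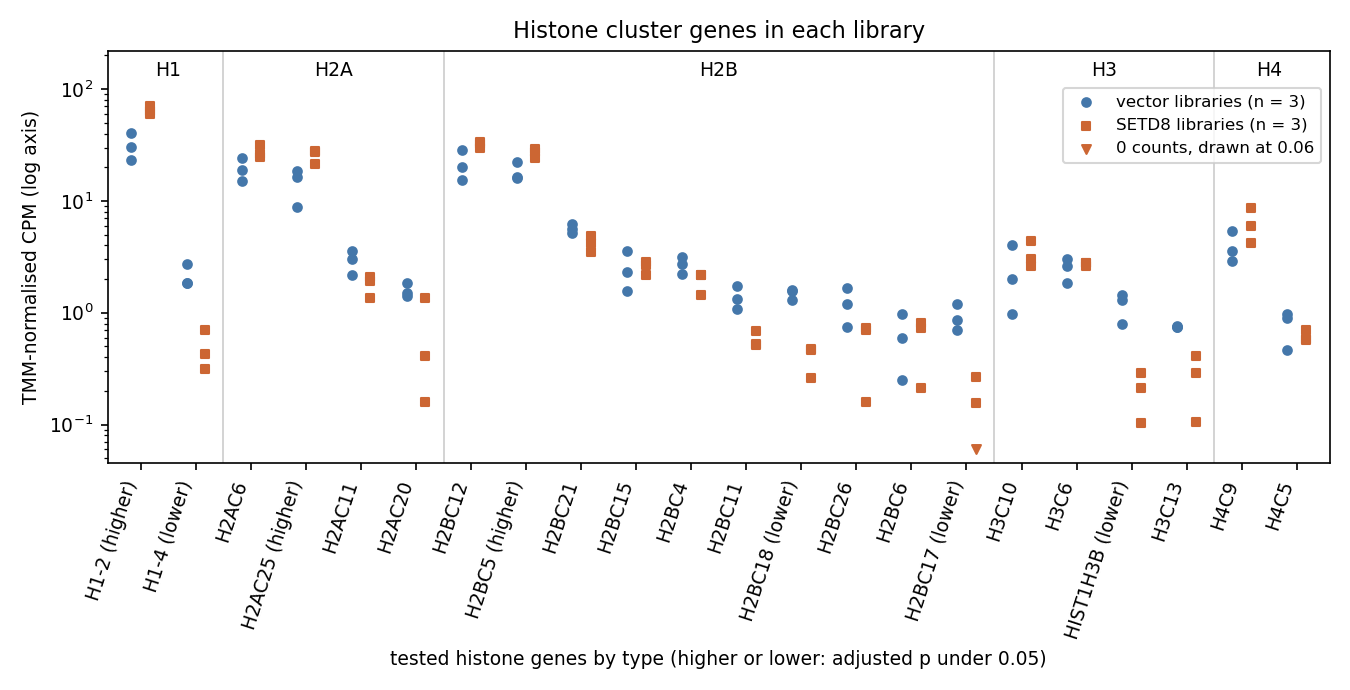
TMM-normalised CPM (log axis) of the 22 tested histone cluster genes in each library, grouped by histone type, with circles for vector and squares for SETD8 libraries (n = 3 each) and a triangle for the SETD8 library with 0 counts of H2BC17. H1-2, H2AC25 and H2BC5 sit higher with SETD8, and H1-4, H2BC18, H2BC17 and HIST1H3B sit lower, each without overlap.

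Linker histones bind the DNA entering and leaving the nucleosome. H1-2, on chromosome 6 (26055787 to 26056428, GRCh38), had the most counts of the histone cluster genes. It stood at 40.4, 30.3 and 23.4 CPM in vector replicates 1, 2 and 3 and at 70.9, 63.8 and 59.5 CPM in SETD8 replicates 1, 2 and 3. Every SETD8 library lay above every vector library. The log2 fold change was 1.04 (SE 0.16, edgeR adjusted p = 0.00566), a 2.06-fold rise. H1-4, which lies on the same chromosome (26156354 to 26157107), stood at 1.85, 1.85 and 2.71 CPM in the vector libraries and at 0.424, 0.311 and 0.698 CPM in the SETD8 libraries. It fell by 2.16 on the log2 scale (SE 0.41, edgeR adjusted p = 0.0112), again without overlap, though the SETD8 values rest on 8, 6 and 12 counts. H1-4 made up 4.39, 5.74 and 10.4% of all H1 counts in vector replicates 1, 2 and 3 and 0.594, 0.484 and 1.16% in the SETD8 libraries. H1-3 had 1 count in all 6 libraries together, and the other 3 H1 genes had none. Across their coding sequences H1-2 and H1-4 were 77.2% identical, with a longest shared run of 29 bases.

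H1-2 and H1-4 are shown with the 150 bases before their RefSeq start sites (GRCh38.p14), since they moved in opposite directions. Capitals mark AAACACA (the H1 box, an element of H1 promoters), CCAAT and TATAAA, searched on both strands.
H1-2, chr6:26056471-26056620, minus strand: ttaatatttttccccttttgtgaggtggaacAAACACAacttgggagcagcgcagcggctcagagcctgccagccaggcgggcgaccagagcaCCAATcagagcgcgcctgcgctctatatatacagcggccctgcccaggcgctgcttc
H1-4, chr6:26156179-26156328, plus strand: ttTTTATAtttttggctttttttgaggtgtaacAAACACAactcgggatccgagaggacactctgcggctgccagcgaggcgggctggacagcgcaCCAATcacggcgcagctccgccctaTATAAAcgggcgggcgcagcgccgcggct
Both hold an H1 box, 119 and 117 bases before the start, and a CCAAT box, 57 and 54 bases before it. H1-4 also has TATAAA 29 bases before the start and a match on the other strand near the far end. These exact letters do not occur in the H1-2 window. Variants were not searched, and the H1-2 window holds tatatata, unmarked, between its CCAAT box and the start. A difference in TATA elements is therefore not shown. Aligned with gaps allowed, the windows were 71.4% identical. Over 250 bases before the start, AAACACA stood in 6 of 6 H1 genes, 0 of the other histone cluster genes with a promoter in the table and 5.95% of all 27305 genes. CCAAT stood in 37.0% of all genes and TATAAA in 13.0%.

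H2A and H2B form the dimers that flank the central H3 and H4 tetramer of the nucleosome. Of the H2A genes, H2AC25 on chromosome 1 (228456979 to 228457873) had 16.2, 18.5 and 8.76 CPM in vector replicates 1, 2 and 3 and 28.2, 21.3 and 27.4 CPM with SETD8. The groups did not overlap, with the nearest values 18.5 and 21.3. It rose by 0.82 on the log2 scale (SE 0.22, edgeR adjusted p = 0.0456). H2AC6, the H2A gene with the most counts, had 18.9, 24.2 and 15.0 CPM against 31.9, 24.8 and 26.5 CPM. Its groups were also apart, by a narrow gap, and it missed the threshold (log2 fold change 0.52, edgeR adjusted p = 0.0656; DESeq2 adjusted p = 0.0342). H2AC11 (log2 fold change -0.72) and H2AC20 (-1.34) were lower in every SETD8 library than in any vector library without passing (edgeR adjusted p = 0.138 for both). H2AC20 varied widely with SETD8, from 0.159 to 1.34 CPM.

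Among H2B genes, H2BC5 on chromosome 6 (26158146 to 26171349) had 22.2, 16.1 and 16.2 CPM in the vector libraries and 28.9, 27.2 and 24.3 CPM in the SETD8 libraries. The groups did not overlap, and H2BC5 rose by 0.56 on the log2 scale (SE 0.14, edgeR adjusted p = 0.0323). It starts 1039 bases past the end of H1-4, which fell. H2BC12 had 28.7, 20.1 and 15.5 CPM against 29.8, 32.1 and 33.9 CPM. Vector replicate 1 lay close to the SETD8 values, and the gene missed the threshold (log2 fold change 0.58, edgeR adjusted p = 0.0614; DESeq2 adjusted p = 0.0194).

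The H2B genes that fell were low. H2BC18 on chromosome 1 (149782689 to 149812373) had 1.31, 1.60 and 1.56 CPM in vector and 0.477, 0.259 and 0.465 CPM in SETD8 libraries, a fall of 1.88 on the log2 scale (SE 0.42, edgeR adjusted p = 0.0200). H2BC17 on chromosome 6 (27893463 to 27893843) had 1.20, 0.699 and 0.864 CPM against 0.265, 0.155 and 0 CPM and fell by 2.62 on the log2 scale (SE 0.67, edgeR adjusted p = 0.0332). For both genes the groups were apart, and the SETD8 libraries held at most 9 counts each. H2BC21 (-0.44), H2BC4 (-0.48) and H2BC15 (0.06), all of at least 1 CPM, did not pass (edgeR adjusted p = 0.180, 0.299 and 0.922). H2BC18 shares its position with FCGR1A, and H2BC5 with an antisense gene, AL353759.1. Whether reads were counted by strand is not stated in the labels or notes, so reads of such pairs cannot be told apart. Some histone cluster genes also overlap each other in position. H2AC15 and H2AC16 lie within H2BC15, H3C12 overlaps H2AC17 on the same strand, and H4C15 overlaps H3C15. H2AC15, H2AC16 and H2AC17 had 0 counts in every library, and how reads in such overlaps were counted is not given.

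H3 and H4 form the core tetramer, and both were scarce. HIST1H3B on chromosome 6 (26031650 to 26032060) had 1.31, 0.798 and 1.44 CPM in the vector libraries and 0.212, 0.104 and 0.291 CPM in the SETD8 libraries. The groups did not overlap, and it fell by 2.52 on the log2 scale (SE 0.53, edgeR adjusted p = 0.0169), from 65 counts summed over the vector libraries to 11. H3C10 (log2 fold change 0.50) and H3C6 (0.13) overlapped between groups and did not pass (edgeR adjusted p = 0.453 and 0.799). H4 is the histone that SETD8 methylates. H4C9, the H4 gene with the most counts, had 5.34, 3.54 and 2.88 CPM against 5.93, 4.24 and 8.67 CPM, and the groups overlapped (log2 fold change 0.67, edgeR adjusted p = 0.151). Only H4C9 and H4C5 among the 15 H4 genes had enough counts for the test.

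Low members are best read from their counts. Without the low-count filter, edgeR called 6 members higher and 9 lower of the 49 with a count, beside 3.46% and 3.83% of all 27442 genes with a count. H4C1 had 16, 14 and 5 counts in vector replicates 1, 2 and 3 and 0 in each SETD8 library (edgeR adjusted p without the filter = 1.95e-04). Against a floor of 3 counts over the SETD8 group it was at least 11.6-fold lower, with the vector counts taken as exact and their spread left out. H4C2 had 13, 19 and 6 counts against 0, 1 and 0 (6.81e-04). Both H4 genes were thus near or at 0 in every SETD8 library. H3C12 had 14, 25 and 9 counts against 0, 3 and 2 (edgeR adjusted p without the filter = 0.00233). H2BC14 had 9, 4 and 5 counts against 0, 0 and 0, at least 5.96-fold lower with the same floor and the vector counts again taken as exact (0.0223). H2AC20 (edgeR adjusted p = 0.0444) was also lower there, and H2AC6 (0.00259), H2BC12 (3.65e-04) and H4C9 (0.0374) were higher. Dropping the filter also lowered the adjusted p of well-counted genes, at nearly the same fold change. The edgeR adjusted p of H1-2 went from 0.00566 to 7.14e-17 and that of H2BC12 from 0.0614. P-values without the filter are therefore not comparable with those of the main fit.

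The direction differed with the level of the gene. The split at 10 CPM and at 1 CPM, averaged over all 6 libraries, was made after the values were seen, so it describes these libraries and was not tested. The 5 genes of at least 10 CPM (H1-2, H2BC12, H2AC6, H2BC5 and H2AC25) summed to 126, 109 and 78.8 CPM in vector replicates 1, 2 and 3 and to 190, 169 and 172 CPM with SETD8, a 1.69-fold difference of means. The other 66 genes went from 42.1 ± 2.56 to 30.1 ± 4.23 CPM (SD, n = 3 each), lower in every SETD8 library. In each of the 5 genes of at least 10 CPM every SETD8 library lay above every vector library, as in 14.4% of all tested genes. That share was not taken for genes of at least 10 CPM alone. The 9 genes of 1 to 10 CPM summed to 28.5, 26.3 and 23.9 CPM against 23.4, 20.8 and 27.6 CPM, with overlap. The 57 genes under 1 CPM, 22 of them at 0, summed to 16.0, 16.2 and 15.4 CPM in the vector libraries and to 5.14, 6.06 and 7.27 CPM in the SETD8 libraries. Their sum with SETD8 was 0.388 of that with the vector, while all 14258 genes under 1 CPM with a count gave 0.912 and the 4221 other protein-coding genes among them 0.83.

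Where the libraries could resolve a difference among low genes, from 0.2 to 1 CPM, 13 of the 21 histone cluster genes were lower in every SETD8 library than in any vector library (61.9%) and 1 was higher (4.76%, H4C12). The background over all 3191 genes of that level was 8.9% lower and 6.58% higher. Other protein-coding genes of that level, 1328 in number, gave 11.1% and 4.82%. Of all 35 histone cluster genes under 1 CPM with a count, 14 were lower in this way (40%) and 1 was higher (2.86%). All genes under 1 CPM with a count gave 4.45% and 2.77%, and the other protein-coding genes among them 6.02% and 2.51%. Among the tested members of any level 11 of 22 were lower without overlap and 5 higher, beside 15.9% and 14.4% of all tested genes, with the same limit from the filter. H4C12, the exception, had 4, 4 and 1 counts in the vector libraries and 6, 13 and 8 with SETD8, and its coding sequence is identical to that of H4C11.

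**Figure D2:**
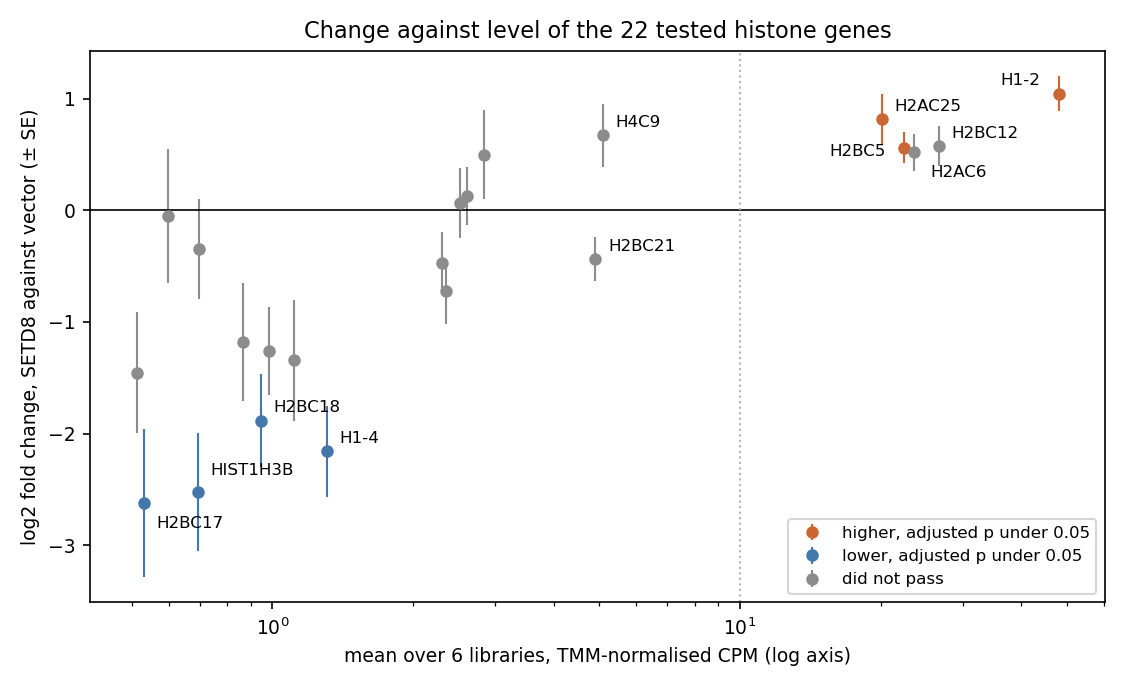
Log2 fold change of SETD8 against vector (bars, ± SE) of the 22 tested histone cluster genes against their mean CPM over the 6 libraries (log axis), coloured by whether the gene rose, fell or did not pass, with a dotted line at 10 CPM. The 5 genes of at least 10 CPM lie above 0, and the 8 tested genes under 1 CPM lie below it, of which 6 passed the low-count filter only through the vector libraries, where they are high.

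A sum over genes does not depend on how reads were split among near-identical copies, though reads left uncounted because they match several copies would be missing from it too. All 71 genes together held 171, 152 and 118 CPM in vector replicates 1, 2 and 3 and 218, 196 and 206 CPM in SETD8 replicates 1, 2 and 3, or 147 ± 26.6 and 207 ± 11.1 CPM (SD, n = 3 each). That is 0.0119 to 0.0165% of a vector library and 0.0202 to 0.0219% of a SETD8 library. H1 summed to 42.2, 32.2 and 26.1 CPM against 71.3, 64.1 and 60.3 CPM, nearly all of it H1-2. H2B summed to 67.8, 52.3 and 49.2 CPM against 69.9, 71.0 and 68.6 CPM, apart by a narrow gap. H2A (42.0, 50.5 and 29.7 against 63.4, 48.7 and 58.5 CPM) overlapped between groups. So did H3 (9.05, 7.98 and 7.15 against 5.99, 6.11 and 8.09 CPM) and H4 (9.76, 8.58 and 5.99 against 7.63, 6.21 and 11.0 CPM). The 5 genes of at least 10 CPM took 66.7 to 74.0% of the histone cluster counts in vector libraries and 83.1 to 86.9% in SETD8 libraries. Without the gene with the most counts in each type, the summed fold was 1.06 in place of 1.41.

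**Figure D3:**
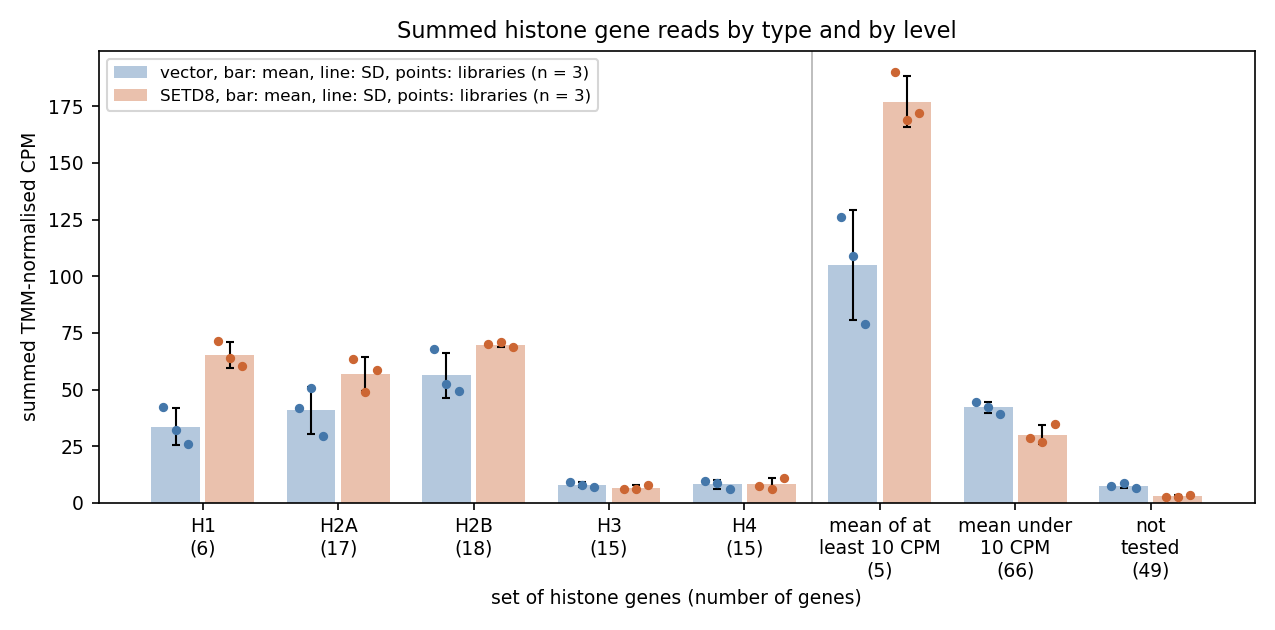
Summed TMM-normalised CPM of the histone cluster genes by type and by level, with bars for the group means, lines for the SD and points for the libraries (n = 3 each), and the number of genes in brackets. The H1 and H2B sums and that of the 5 genes of at least 10 CPM lie higher in all 3 SETD8 libraries, those under 10 CPM and those not tested lie lower, and the H2A, H3 and H4 sums overlap.

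Levels of different genes can be compared only per length. On CPM per kilobase of the annotated exons, H1-2 stood at 74.9, H2BC12 at 70.0, H2BC5 at 25.8, H2AC25 at 22.4, H2AC6 at 14.1 and H4C9 at 3.94. The models of H1-2 and H2BC12 hold the coding region alone, which shortens the length by which their counts are divided.

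Annotated 3′ ends divided the genes further, without a test. The 29 genes with 100 or more annotated bases after the stop codon summed to 89.2, 88.9 and 67.8 CPM against 115, 97.3 and 108 CPM. The 35 genes whose annotation ends at the stop codon summed to 78.5, 59.5 and 46.9 CPM against 102, 98.2 and 96.6 CPM. Both classes were higher with SETD8, and both rest on their genes of at least 10 CPM, which were set aside after their values were seen. Without H2AC6, H2AC25 and H2BC5 the first class stood at 31.9, 30.2 and 27.8 CPM against 26.1, 23.9 and 30.0 CPM, with overlap. Without H1-2 and H2BC12 the second stood at 9.43, 9.13 and 8.01 CPM against 1.54, 2.28 and 3.26 CPM, lower in every SETD8 library. The difference between the classes was not tested. In 21 genes the annotation continued at least 100 bases past the stop codon and held AATAAA or ATTAAA in its last 50 bases, the signals for poly(A) addition. H2AC25, H2AC6 and H2BC5 are among them, and so is H2BC18, which fell.

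Histone genes often stand head to head and share the stretch between their starts. Among the 71, 12 such pairs start within 1000 bases of each other (at most 357 bases apart), of which 11 join an H2A and an H2B gene. Both genes were tested in 4 pairs. H2AC25 (log2 fold change 0.82) and H2BC26 (-1.18, edgeR adjusted p = 0.175) start 234 bases apart, and H2AC6 (0.52) and H2BC4 (-0.48) 219 bases apart. These 2 pairs had opposite signs, though only H2AC25 passed. H2BC11 (-1.26, edgeR adjusted p = 0.0666) and H2AC11 (-0.72), 292 bases apart, were both lower, as were H2BC21 (-0.44) and H2AC20 (-1.34), 323 bases apart. H2BC12, at 0.58, faces H2AC12 across 331 bases, which went from 37 counts over the vector libraries to 8. The octamer ATTTGCAT, an element of H2B promoters, stood within 250 bases before the start in 14 of 18 H2B genes and 11 of 14 H2A genes matched, beside 2.03% of all genes.

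**Figure D4:**
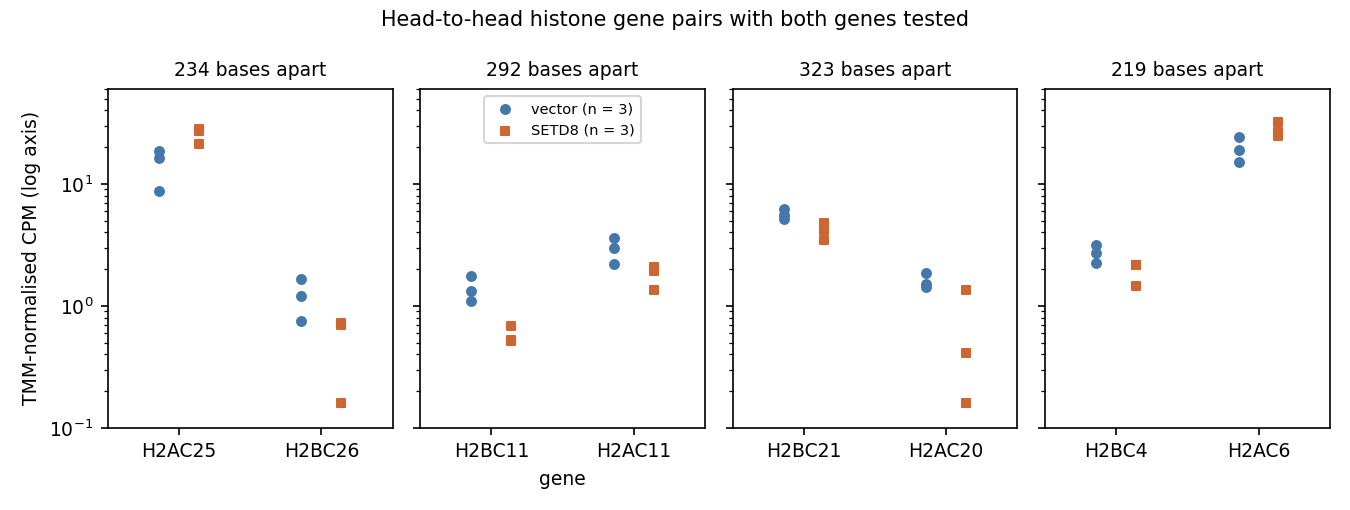
TMM-normalised CPM (log axis) in each vector and SETD8 library (n = 3 each) of both genes of the 4 head-to-head pairs in which both were tested, 1 pair in each panel. In the panels of H2AC25 with H2BC26 and of H2BC4 with H2AC6 the 2 genes of a pair differ from the vector in opposite directions.

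By cluster, the HIST2 genes of chromosome 1 summed to 9.70, 10.9 and 10.3 CPM in vector replicates 1, 2 and 3 and to 5.99, 5.85 and 6.22 CPM with SETD8, lower without overlap. The HIST1 genes of chromosome 6 summed to 144, 121 and 97.0 CPM against 184, 168 and 172 CPM, and the 3 HIST3 genes to 17.4, 19.3 and 10.5 CPM against 28.4, 22.1 and 28.2 CPM, both higher. H2AC25 gives most of the HIST3 sum. H1-2, H2BC12, H2AC6 and H2BC5, all of at least 10 CPM, are HIST1 genes and give most of the HIST1 sum. H2BC21, the highest HIST2 gene, averaged 4.91 CPM. These sums therefore cannot tell a difference between clusters apart from the split by level, and clusters were not compared at like level.

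Near-identical copies limit single values. H2BC12 was 93.9% identical to H2BC6 over the coding region, H2BC5 93.7% to H2BC13, H2BC18 94.4% to H2BC21 and H2BC17 92.9% to H2BC21. HIST1H3B was 87.3% identical to H3C4, H2AC6 89.5% and H2AC25 86.9% to H2AC16. Coding sequences were identical in HIST2H2AA3 and HIST2H2AA4, H3C14 and H3C15, H4C11 and H4C12, and H4C14 and H4C15, and no label or note says how the authors' counting treated reads that match more than 1 copy.

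Genes that serve histone messengers and chromatin assembly are read beside the background of 7.83% called among all tested genes. Of 31 tested genes for histone gene transcription and 3′ processing, 0 passed edgeR in either direction, and 5 had an unadjusted p under 0.05 (26% of all tested genes did). DESeq2 called 2 of them higher, LSM10 (edgeR log2 fold change 0.46) and LSM1 (0.50), beside 5.14% of all its genes. The median was 0.03. SLBP had 124, 131 and 122 CPM in the vector libraries and 132, 135 and 133 CPM with SETD8 (log2 fold change 0.08, edgeR adjusted p = 0.526). NPAT, the coactivator of histone transcription at the histone locus body, had 6.76, 9.28 and 13.7 CPM against 9.22, 8.49 and 6.40 CPM (-0.30, edgeR adjusted p = 0.439). CASP8AP2, another histone locus body protein, had 11.9, 15.0 and 19.1 CPM against 11.9, 11.8 and 8.49 CPM (-0.51, edgeR adjusted p = 0.103). In both genes the groups overlapped, and vector replicate 3 was the highest library.

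Over all tested genes 4.75% fell and 3.08% rose with SETD8, the background for the chaperone and S phase lists. Of 25 tested histone chaperone genes 1 fell and 0 rose, with a median log2 fold change of -0.07. It was SUPT6H, a histone chaperone and elongation factor, at 254, 289 and 313 CPM against 232, 225 and 230 CPM (log2 fold change -0.32, edgeR adjusted p = 0.0477). Of 25 S phase genes 3 fell and 0 rose, with a median of -0.12, beside 0 for all tested genes. MCM2, a subunit of the replicative helicase, had a log2 fold change of -0.38, POLA1, the catalytic subunit of DNA polymerase alpha, of -0.45 and UHRF1, which recruits the maintenance DNA methyltransferase, of -0.41 (edgeR adjusted p = 0.0280, 0.0301 and 0.0301). Replacement histones, whose making is not confined to S phase and rests mostly on polyadenylated messengers, gave 0 calls among 11 genes by edgeR and DESeq2 (3 with an unadjusted p under 0.05). Their median was 0.03. Whether S phase genes or the share of cells in S phase bear on the histone values was not tested.

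Other RNAs made without a poly(A) tail were examined after the values were seen, to look at what the selection let through. They cannot settle it, since how reads matching several copies were counted is not given. RN7SL1 had 0 counts, while RN7SL2 averaged 101 CPM over the 6 libraries, above H1-2 at 48.1. Of 17 such genes 8 had 0 counts and 1 was tested, RN7SL2, at 140, 89.7 and 90.2 CPM in the vector libraries and 53.3, 128 and 105 CPM with SETD8 (log2 fold change -0.16, edgeR adjusted p = 0.813). The other 16 summed to 35, 31 and 19 counts in vector replicates 1, 2 and 3 and to 17, 12 and 19 counts in the SETD8 libraries. Vector replicate 3 and SETD8 replicate 3 were thus equal. Most of the difference in these sums came from 1 gene, SCARNA7, with 22, 14 and 4 counts against 1, 1 and 6. The part of such carry-over in the fall of the low histone genes was not tested.

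The calls rested on single libraries, and so did the calls over all genes. Without vector replicate 1, 6 of the 7 were called, with H2AC25 lost (edgeR adjusted p = 0.0596), while 1771 genes were higher and 1738 lower among all genes. Without vector replicate 2 and without SETD8 replicate 2 only H1-2 was called, and without SETD8 replicate 3 only H1-2 and H1-4 were. Among all genes 25 were higher and 47 lower without vector replicate 2. Without SETD8 replicate 2 these numbers were 45 and 110, and without SETD8 replicate 3 they were 45 and 84. Without SETD8 replicate 1 none was, with H1-2 at a log2 fold change of 0.98 (edgeR adjusted p = 0.0508) and H1-4 at -2.08, and in that fit 1 gene was higher and 10 were lower among all genes. Without vector replicate 3 all 7 were called, with 449 genes higher and 644 lower among all genes. The direction of each of the 7 was unchanged in all 6 of these fits.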

How the data were processed

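Messenger RNA of 6 HCT116 samples was measured. The authors deposited raw read counts for each gene, in whole numbers. Per the submitters' processing notes, the builds were GRCh38 and hg38 and the tools STAR, HISAT2, HTSeq and featureCounts, without versions or roles. Annotation and strand setting: not given in the sources used here. Columns named NC were taken as the vector group, the only group other than SETD8, with their number as the replicate. No columns of other samples were found (0). All 58735 IDs matched GENCODE release 29.

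SETD8 was compared with vector, with no covariate, by edgeR 4.0.16 (R 4.3.3, limma 3.58.1; robust quasi-likelihood test, TMM, filterByExpr). The test was two-sided, p-values were adjusted by Benjamini-Hochberg across the 14370 genes tested, and the threshold was 0.05. The filter dropped 44365 genes, and the tested genes held at least 99.9% of each library. The SE is the size of the log2 fold change over the square root of F. Sums and splits by level or annotation carry no test. Named genes were every member past the threshold, H1-2, H1-4 and H2BC5, members of at least 1 CPM, those called without the filter, NPAT, CASP8AP2, SLBP and up to 4 called genes of each list. Genes named outside this rule were chosen after their values were seen. The members and lists were chosen with earlier results of these data known. Stem-loops, coding sequences and lengths came from GENCODE 29, promoters from RefSeq (GRCh38.p14; 61 of 71 members matched). The fit was tested on simulated data, where with gene-wise dispersions more calls were unchanged genes than the threshold allows. Alternatives were other scalings and filters, limma-voom, DESeq2 1.42.0, each library left out in turn and a replicate block. Figures were drawn with matplotlib 3.10.9.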

Additional observations from a re-analysis of the deposited data

How the results depend on the processing

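All 7 called histone genes kept their direction under each alternative that gave them a value. They kept the call with DESeq2-type size factors, library totals, no low-count filter, limma-voom and the replicate block. With 1 CPM in all 3 libraries of a group 5 of 5 kept it, and with DESeq2 4 of 4. Members called higher numbered 5 with library totals, DESeq2 and the replicate block, 6 without the filter and 0 to 6 when each library was left out. Members called lower numbered 9 without the filter, 1 with DESeq2 and 0 to 8 when each library was left out. Genes of the histone-related lists called higher numbered 2 with library totals and DESeq2, 4 without the filter, 1 with the replicate block and 0 to 6 when each library was left out. Those called lower numbered 7 without the filter and 0 to 10 when each library was left out. With library totals the median over all genes moved by 0.043 (log2), with 792 higher and 505 lower genes, in place of 443 and 682. All genes called higher numbered 949 without the filter, 672 with DESeq2 and 1 to 1771 when each library was left out. Those called lower numbered 1051 without the filter and 10 to 1738 when each library was left out.

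Same-numbered libraries did not deviate together (correlations 0.025, 0.008 and -0.064), so the numbers were not taken as pairs. With the replicate block 532 genes were higher and 645 lower, and vector replicate 1 correlated best with SETD8 replicate 3 (0.07). Without the gene with the most counts in each type, the fold of the sums, SETD8 over vector, was 1.06 for all members, 0.233 for H1 (in place of 1.95), 1.08 for H2B, 0.595 for H3 and 0.477 for H4 (in place of 1.02). The H4 fold ranged from 0.853 to 1.15 when each library was left out, with 0.903 without vector replicate 3 and 0.853 without SETD8 replicate 3. Complete stem-loops numbered 29 in the longest coding transcript alone, in place of 32. Summing copies of identical protein was not run. Depth limits the low genes, where 3 counts are 0.150 to 0.174 CPM.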
